A study of Mus musculus with 6 samples.

Results

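The report concerns 10 transcription factor genes of the dorsal neural tube and of the neural plate border: Pax3, Pax7, Msx1, Msx2, Sox9, Tfap2a, Tfap2b, Dlx3, Dlx5 and Gata3. They were found among the 20284 named genes of a mouse array through the transcript accession that the files give for each probe, and 12 of the 55681 probes belong to them. Sox9, Pax7, Msx1, Msx2, Tfap2b, Dlx3, Dlx5 and Gata3 have 1 probe each, and Pax3 and Tfap2a have several, each given on its own. RNA came from epiblast stem cells (EpiSCs) of strain 129/Sv, pluripotent cells that resemble the epiblast of the implanted embryo. Cultures were either kept in the epiblastic maintenance condition (EpiSC) or spent 1 day (NPC1) or 2 days (NPC2) under conditions for neural plate development. Each of these 3 groups held 2 cultures, A and B, all from the same seed culture, and each culture was read on its own 1-colour Agilent array. The p-values therefore measure only the spread between these cultures, which may be technical. No transgene, deletion or further agent is given in the labels for any group.

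During neurulation, the border between the neural plate and the surface ectoderm is set by graded BMP, Wnt and FGF signals. Border cells express Msx, Dlx, Tfap2 and Pax3 or Pax7 factors, and they later give rise to neural crest, placodes and the dorsal neural tube, where Pax3, Pax7, Msx1 and Msx2 persist. Gata3, Dlx3 and Dlx5 are known from the non-neural side of the border, whereas Sox9 marks premigratory neural crest and later neural progenitors.

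The arrays shared 1 slide and 1 scan. On each of them 58.2% to 61.1% of 59305 non-control spots were well above background by the scanner software's flag, and 0 were saturated. Values are processed intensities in scanner units, and a dim value is one without that flag. A probe entered the test when both arrays of some group showed it well above background, which 33532 probes and 10 of the 12 probes met. A gene is counted through its brightest tested probe, so that 9 of the 10 genes and 14772 named genes in all entered the counts. Differences are log2 differences of intensity scaled to each array's 75th percentile, with the standard error (SE) from limma's fit of all 6 arrays and with p-values adjusted over all tested probes. The threshold was an adjusted p of 0.05, and n is 2 arrays per group throughout. In RNA from whole cultures, fewer cells of a type and less RNA per cell cannot be told apart. The labelled cell type was checked with 12 epiblast genes, among them Pou5f1, Utf1 and Fgf5: all 12 were well above background on every array, and their summed level, with the array's 75th percentile as 1, was 753 to 762 in EpiSC, 522 in NPC1 and 267 to 268 in NPC2. Of these 12 genes 9 fell in NPC2 against EpiSC, and Nanog (0.81, adjusted p = 0.000552), Otx2 (0.77, adjusted p = 0.000877) and Lin28a (0.63, adjusted p = 0.00136) rose on the log2 scale. Of all tested genes 26.3% were higher and 38.2% lower in that comparison.

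Across the 3 groups the 10 genes fell into a few patterns. Sox9 was higher on day 1 and higher again on day 2. Pax3, Pax7, Msx1, Msx2 and Tfap2a were higher in NPC2 than in both other groups, and none of these 5 passed as higher on day 1. A rise of Pax3 or Pax7 below detection on day 1 could not be seen. Gata3 and, by a small margin, Dlx3 were lower in NPC2, Dlx5 did not pass the test, and Tfap2b was dim on all 6 arrays.

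**Figure D1:**
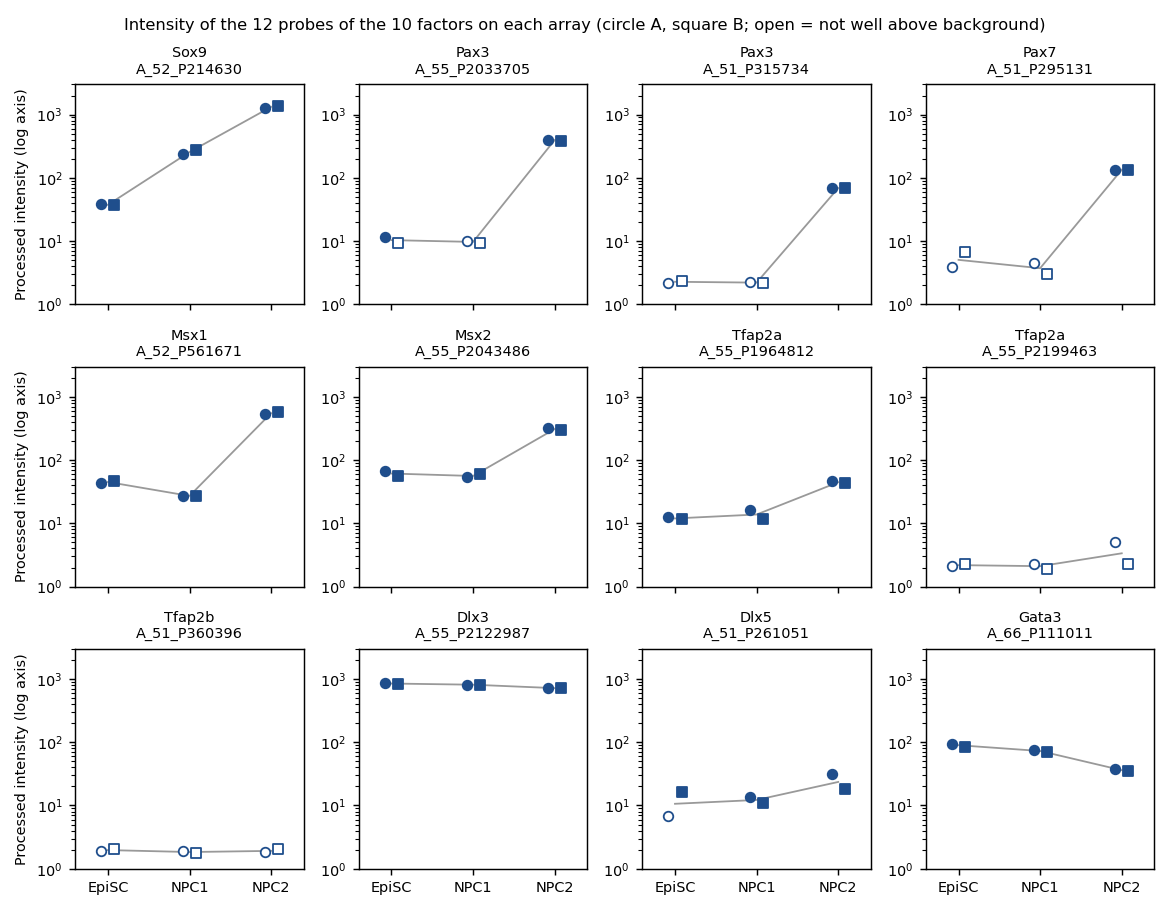
Processed intensity of each of the 12 probes (log axis, scanner units) on the 2 arrays of EpiSC, NPC1 and NPC2, with circles for culture A, squares for culture B and a line through the group means. Open symbols are not well above background. Pax3, Pax7, Msx1 and Msx2 lie flat or fall between EpiSC and NPC1, and Tfap2a (its brighter probe) rises slightly there without passing. All of these stand higher in NPC2, while Sox9 climbs at both steps.

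Sox9, a SoxE factor of neural crest and neural progenitors, was the only tested factor that passed as higher on day 1. Its intensity was 38.1 and 36.9 in EpiSC, 239 and 274 in NPC1 and 1290 and 1360 in NPC2. The groups did not overlap, and the duplicates lay close together at each time. Sox9 was 6.88-fold higher in NPC1 than in EpiSC (log2 difference 2.78 ± 0.066, adjusted p = 0.000259) and 4.92-fold higher in NPC2 than in NPC1 (2.30 ± 0.066, adjusted p = 0.000227). Over both days it was 33.9-fold higher in NPC2 than in EpiSC (5.08 ± 0.066, adjusted p = 2.34e-05). Among the 14772 genes, ordered by fitted difference from the largest rise to the largest fall, with dim genes at their fitted values, Sox9 stood at place 36 in NPC1 against EpiSC, at place 44 in NPC2 against EpiSC and at place 188 in NPC2 against NPC1. Its probe is printed at 10 places on each array, which shows the measurement error within an array. The single spots ranged over 29.4 to 55.9 on EpiSC A, 27.6 to 48.6 on EpiSC B, 200 to 260 on NPC1 A, 239 to 289 on NPC1 B, 1190 to 1350 on NPC2 A and 1270 to 1450 on NPC2 B. No spot of a group reached into the range of another group. Of the 10 spots on NPC2 A, 2 carried an outlier mark and were left out.

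Pax3 and Pax7, paired-domain factors of the dorsal neural tube and the border, were dim or near background until day 2. The brighter Pax3 probe (A_55_P2033705) read 11.5 and 9.36 in EpiSC, 9.99 and 9.46 in NPC1 and 404 and 389 in NPC2. Of the 4 arrays of EpiSC and NPC1, EpiSC A was the only array on which it was well above background. Both NPC2 arrays lay far above the other 4. By the fitted values, Pax3 was 36.5-fold higher in NPC2 than in EpiSC (log2 difference 5.19 ± 0.12, adjusted p = 4.34e-05) and at least 38.6-fold higher in NPC2 than in NPC1 (adjusted p = 0.000176). The words "at least" mark a bound: the mean of the group in which the probe was bright is divided by that of the dim group, after each dim array was raised to the lowest signal among its probes well above background wherever the probe lay under it. The other Pax3 probe (A_51_P315734) read 2.2 and 2.36 in EpiSC, 2.24 and 2.18 in NPC1 and 69.3 and 68.6 in NPC2. It was dim on all 4 arrays of the first 2 groups, and it gave bounds of at least 7.12-fold for NPC2 over EpiSC (adjusted p = 2.34e-05) and at least 7.61-fold for NPC2 over NPC1 (adjusted p = 0.000108). Both probes passed the test as higher in NPC2 in these 2 comparisons. They had entered it through the NPC2 arrays alone and so had to differ, and their p-values and shared direction are descriptions. The brighter probe's dim NPC1 values lay above that lowest signal, so its bound equals the fitted fold, and the other probe's bound is the lower of the 2.

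Pax7 read 3.84 and 6.66 in EpiSC, 4.54 and 3.07 in NPC1 and 134 and 135 in NPC2. The EpiSC and NPC1 arrays were all dim and overlapped, and both NPC2 arrays stood apart. Pax7 too had entered the test through the NPC2 arrays alone and so had to differ. Pax7 was at least 13.9-fold higher in NPC2 than in EpiSC (adjusted p = 0.000538) and at least 14.8-fold higher in NPC2 than in NPC1 (adjusted p = 0.00098). Between NPC1 and EpiSC neither Pax gene passed the test. The fitted log2 difference was -0.08 ± 0.12 for Pax3 (adjusted p = 0.642) and -0.43 ± 0.34 for Pax7 (adjusted p = 0.393), both from arrays at or near background.

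**Figure D2:**
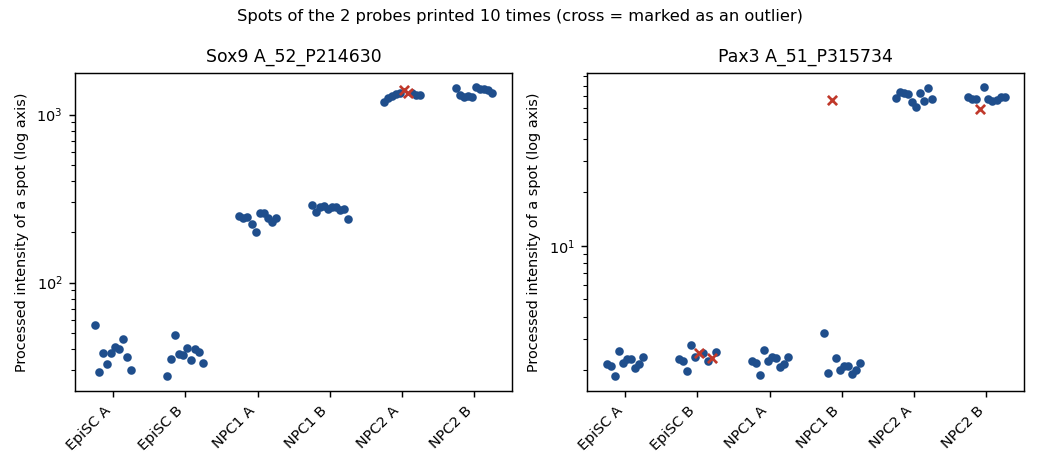
Processed intensity of single spots (log axis, scanner units) for the Sox9 probe and for the Pax3 probe A_51_P315734, each printed at 10 places on every array, with crosses for spots marked as outliers. The Sox9 spots form 3 separate levels, and the Pax3 spots in use lie at 1.84 to 3.24 on the EpiSC and NPC1 arrays and at 60.6 to 78 on the NPC2 arrays, with 1 cross at 66.1 on NPC1 B.

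Msx1 and Msx2, homeobox factors that respond to BMP signals at the border and in the dorsal neural tube, were measured well above background on every array. Msx1 read 43.1 and 47.0 in EpiSC, 27.2 and 27.0 in NPC1 and 525 and 577 in NPC2. The 3 groups did not overlap, and NPC1 was the lowest. Msx1 fell 1.65-fold in NPC1 relative to EpiSC (log2 difference -0.72 ± 0.086, adjusted p = 0.00551) and was 19.3-fold higher in NPC2 than in NPC1 (4.27 ± 0.086, adjusted p = 0.000144). In NPC2 it was 11.7-fold higher than in EpiSC (3.55 ± 0.086, adjusted p = 4.38e-05). Msx1 was the only one of the 9 tested genes that passed the test in opposite directions on the first and the second day.

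Msx2 read 67.5 and 55.6 in EpiSC, 53.0 and 59.1 in NPC1 and 319 and 299 in NPC2. EpiSC and NPC1 overlapped, and both NPC2 arrays were higher than all others. Msx2 was 4.81-fold higher in NPC2 than in EpiSC (log2 difference 2.27 ± 0.11, adjusted p = 0.000177) and 5.22-fold higher in NPC2 than in NPC1 (2.39 ± 0.11, adjusted p = 0.000421). Between NPC1 and EpiSC it did not pass (-0.12 ± 0.11, adjusted p = 0.457).

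The bases just upstream of the Msx1 and Msx2 transcription starts are shown because both genes rose on day 2. They are RefSeq promoter windows of build GRCm38.p6, 250 bases each, written 5′ to 3′ on the strand of the gene and ending at the base before the start. Msx1 lies at chr5:37824586-37824835 (minus strand) and Msx2 at chr13:53472781-53473030 (minus strand). Capitals mark matches on either strand to CCAAT, the CCAAT box, and to TAATTA, a homeodomain core.
Msx1: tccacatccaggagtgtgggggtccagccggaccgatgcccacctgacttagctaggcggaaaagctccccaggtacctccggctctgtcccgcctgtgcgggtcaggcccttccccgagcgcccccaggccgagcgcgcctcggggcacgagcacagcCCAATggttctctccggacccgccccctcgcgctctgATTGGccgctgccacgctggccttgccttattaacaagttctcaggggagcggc
Msx2: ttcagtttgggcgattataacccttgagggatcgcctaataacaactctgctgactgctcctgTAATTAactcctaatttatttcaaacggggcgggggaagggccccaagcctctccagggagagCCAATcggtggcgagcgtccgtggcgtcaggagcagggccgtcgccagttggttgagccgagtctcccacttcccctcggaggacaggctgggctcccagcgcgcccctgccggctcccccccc
The Msx1 window holds CCAAT at -91 and, on the opposite strand, at -54. The Msx2 window holds CCAAT at -124 and TAATTA at -187. In 32851 promoter windows of this length, 33.8% hold CCAAT and 4.84% hold TAATTA, and no matches overlap in the 2 windows shown. The other motifs searched, GCCNNNGGC for AP-2 factors, AGATAA for GATA factors, ACAATG for SOX factors and GGCGCC for BMP-activated SMADs, had no match in the Msx1 and Msx2 windows, which says only that these letters are not there. The matches are descriptions and not sites of binding.

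The AP-2 genes differed in whether they could be measured. Tfap2a encodes AP-2 alpha, a factor of neural crest and surface ectoderm. Its brighter probe (A_55_P1964812) read 12.4 and 11.5 in EpiSC, 16.1 and 11.8 in NPC1 and 46.2 and 42.9 in NPC2. The signal was low but well above background on every array, EpiSC and NPC1 overlapped, and both NPC2 arrays were higher. Tfap2a was 3.57-fold higher in NPC2 than in EpiSC (log2 difference 1.84 ± 0.19, adjusted p = 0.00154) and 3.06-fold higher in NPC2 than in NPC1 (1.61 ± 0.19, adjusted p = 0.0047). Between NPC1 and EpiSC the difference was 0.22 ± 0.19 (adjusted p = 0.423), and without NPC1 replicate B it was 0.50 and passed (adjusted p = 0.0393). The other Tfap2a probe (A_55_P2199463) was dim on all 6 arrays, at 1.93 to 5.01, and was not tested. Tfap2b, which encodes AP-2 beta, read 1.9 and 2.05 in EpiSC, 1.93 and 1.75 in NPC1 and 1.82 and 2.02 in NPC2. All 6 Tfap2b values were dim, so no level or difference can be given for it.

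Dlx3 and Dlx5 are distal-less homeobox factors of the non-neural ectoderm. Dlx3 read 871 and 823 in EpiSC, 808 and 814 in NPC1 and 723 and 709 in NPC2. It was well above background on every array, EpiSC and NPC1 overlapped once scaled, and both NPC2 arrays were lowest. Dlx3 fell 1.24-fold in NPC2 relative to EpiSC (log2 difference -0.31 ± 0.062, adjusted p = 0.0124) and 1.20-fold relative to NPC1 (-0.26 ± 0.062, adjusted p = 0.0352). The median of all tested genes was -0.10 in NPC2 against EpiSC, and Dlx3 lay 0.21 below it on the log2 scale. The call against EpiSC was lost without EpiSC replicate A (adjusted p = 0.0707), without NPC2 replicate A (0.0557), without NPC2 replicate B (0.0677) and in the authors' value table (0.346). The call against NPC1 was lost when any of the 6 arrays was left out (adjusted p between 0.0638 and 0.147). Between NPC1 and EpiSC Dlx3 did not pass (-0.05 ± 0.062, adjusted p = 0.581).

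Dlx5 read 6.86 and 16.5 in EpiSC, 13.6 and 11.0 in NPC1 and 31.0 and 17.9 in NPC2. EpiSC A was dim and the other 5 arrays were not, and the duplicates of EpiSC and of NPC2 lay far apart. Both NPC2 arrays were above the other 4, yet the difference from EpiSC did not pass (log2 difference 1.08 ± 0.51, adjusted p = 0.135), nor did the difference from NPC1 (0.87 ± 0.51, adjusted p = 0.259). Without EpiSC replicate B the difference from EpiSC was 1.71 and passed (adjusted p = 0.0389), whereas it was 0.45 without EpiSC replicate A (adjusted p = 0.421) and 0.69 without NPC2 replicate A (adjusted p = 0.415). NPC1 against EpiSC gave 0.22 ± 0.51 (adjusted p = 0.777).

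Gata3, a zinc finger factor of non-neural ectoderm and of trophoblast, was the clearest fall. Its probe read 94.8 and 84.9 in EpiSC, 76.0 and 69.4 in NPC1 and 37.6 and 34.7 in NPC2. The 3 groups did not overlap and stood in the order of time. Gata3 fell 2.60-fold in NPC2 relative to EpiSC (log2 difference -1.38 ± 0.11, adjusted p = 0.00065) and 2.12-fold relative to NPC1 (-1.09 ± 0.11, adjusted p = 0.00283). On day 1 the difference from EpiSC was -0.29 ± 0.11 and missed the threshold (adjusted p = 0.102). It passed with median scaling (adjusted p = 0.0332), with normexp background correction (0.0279) and with the culture letter as a replicate block (0.0441).

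The promoter window of Gata3 is shown beside those of the Msx genes because Gata3 went the other way. It lies at chr2:9878601-9878850 (minus strand, build GRCm38.p6, RefSeq) and is written 5′ to 3′ up to the base before the start. Capitals mark GCCNNNGGC, an AP-2 motif, at -246, -231 and -221, and GGCGCC, a motif of BMP-activated SMADs, at -212, directly after the last of these.
Gata3: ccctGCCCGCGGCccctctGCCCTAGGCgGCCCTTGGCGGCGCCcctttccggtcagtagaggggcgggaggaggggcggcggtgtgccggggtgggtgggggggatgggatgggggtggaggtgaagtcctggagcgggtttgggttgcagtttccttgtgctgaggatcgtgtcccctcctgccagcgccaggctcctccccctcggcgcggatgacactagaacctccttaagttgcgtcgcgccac
GCCNNNGGC occurs in 13.7% and GGCGCC in 9.59% of the 32851 windows, and 70% of the bases of this window are G or C. The CCAAT box and the homeodomain, GATA and SOX motifs had no match in it. RefSeq windows were given for 6 of the 10 genes, those of Pax7, Tfap2a and Tfap2b also among them, and Pax3, Sox9, Dlx3 and Dlx5 are named only.

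Counted together, 2 of the 9 tested genes passed in NPC1 against EpiSC, Sox9 higher and Msx1 lower. Of all tested genes, 42% passed in that comparison, 18.2% higher and 23.8% lower. In NPC2 against EpiSC 8 of the 9 passed, 6 higher and 2 lower, where 64.4% of all tested genes passed, 26.3% higher and 38.2% lower. In NPC2 against NPC1 it was again 8 of the 9, 6 higher and 2 lower, where 40.2% passed, 17.5% higher and 22.7% lower. Rises of at least 4-fold that passed were counted for 5 of the 9 in each of these 2 comparisons, against 3.74% of all tested genes in NPC2 against EpiSC and 1.54% in NPC2 against NPC1. The median difference of the 9 genes was -0.08 in NPC1 against EpiSC (-0.05 for all tested genes), 2.27 in NPC2 against EpiSC (-0.10) and 2.30 in NPC2 against NPC1 (-0.05). Pax3 and Pax7 entered the test through the NPC2 arrays alone and so had to differ, and the counts are a description for that reason. With probes well above background on all 6 arrays, 6 of the genes remained, and in NPC2 against EpiSC all 6 passed, 4 higher and 2 lower. Without EpiSC replicate B, 9 passed in NPC2 against EpiSC, and without NPC1 replicate B, 2 were higher in NPC1 against EpiSC. The count of falls in NPC2 was 1 in place of 2 wherever Dlx3 lost its call. Normexp background correction gave smaller log2 differences in NPC2 against EpiSC, at 3.72 for Sox9, 2.63 for Pax3, 1.45 for Pax7, 2.52 for Msx1, 1.47 for Msx2, 0.57 for Tfap2a and -0.64 for Gata3, all of which passed. The other Pax3 probe was at 1.06 there and passed, a smaller difference than its bound of at least 7.12-fold. Pax7 at 1.45 was also under its bound of at least 13.9-fold. In NPC2 against NPC1 normexp gave 1.52 for Pax7 and 2.72 for the brighter Pax3 probe. Both were under their bounds of at least 14.8-fold and at least 38.6-fold. The bounds apply to the processed intensities only. The comparisons share arrays and are not independent of each other.

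**Figure D3:**
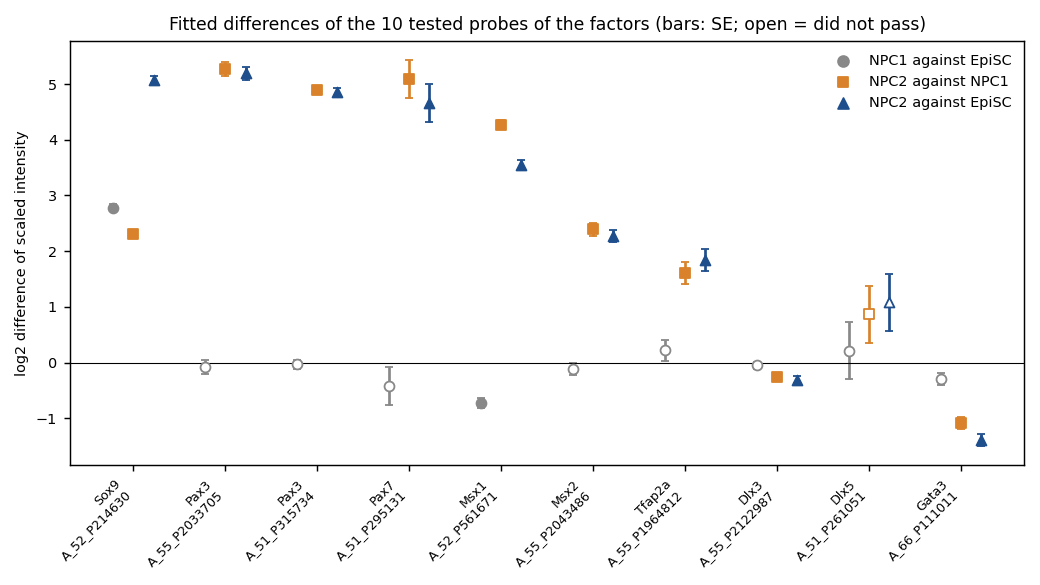
Fitted log2 differences of scaled intensity with their SE for the 10 tested probes in NPC1 against EpiSC (circles), NPC2 against NPC1 (squares) and NPC2 against EpiSC (triangles), with open symbols for those that did not pass. For Pax3, Pax7, Msx1, Msx2 and Tfap2a the circles lie near or below 0 and the squares near the triangles, whereas Sox9 has its circle at 2.78.

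Other genes of the same families were compared with these 10. Of 22 further Pax, Msx, SoxE, Tfap2, Dlx and Gata genes on the array, 12 were tested, and in NPC2 against EpiSC 6 rose and 4 fell, where 26.3% of all tested genes were higher and 38.2% lower. Pax5, Pax6, Pax8 and Msx3 entered the test through the NPC2 arrays alone and so had to differ. Tfap2e entered through the EpiSC arrays alone, where it was highest. The family counts are a description for that reason. The 4 other Pax genes tested all rose: Pax6, an eye and forebrain factor, was at least 2.30-fold higher, Pax5 was at least 1.48-fold higher, and the log2 difference was 2.45 for Pax8 and 1.73 for Pax2. Pax2, Pax5 and Pax8 are known at the boundary of midbrain and hindbrain. Msx3, which in the mouse is restricted to the dorsal neural tube, rose by 2.03, and Sox10, the SoxE factor of migrating neural crest, rose by 0.88 (adjusted p = 0.00528). Tfap2e (-1.90), Gata6 (-1.84), Dlx4 (-1.10) and Gata1 (-0.44) fell. Tfap2c, an AP-2 factor of germ cells and trophoblast, was at 0.01 (adjusted p = 0.861) and Gata5 at -0.07 (adjusted p = 0.301). In NPC1 against EpiSC 0 of the 12 rose and 4 fell by the limma test (also 0 rose at an unadjusted p under 0.05). Of all tested genes 18.2% were higher and 23.8% lower there. In NPC2 against NPC1 7 of the 12 rose and 1 fell, where 17.5% of all tested genes were higher and 22.7% lower. The further Pax genes and Msx3 were at low intensities, as with 9.78 to 17.2 for Msx3 in EpiSC and NPC1 and 49.2 and 59.3 in NPC2.

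Lists of related genes without the 10 were counted in NPC2 against EpiSC, where 64.4% of all tested genes passed, 26.3% higher and 38.2% lower, with a median of -0.10. The counts are descriptions, and genes that entered the test through the NPC2 arrays alone or the EpiSC arrays alone had to differ. Of 13 tested genes of the dorsal neural tube and roof plate, 8 rose and 3 fell, with a median of 0.52. Of the 13, 3 had entered through NPC2 alone and 1 through EpiSC alone. Lmx1a, the LIM homeobox factor that specifies the roof plate, was among the 3 that entered through NPC2 alone and so had to differ. It was at least 35.3-fold higher in NPC2 (adjusted p = 0.000105). Wnt1, a ligand of the dorsal midline, rose by 3.0 ± 0.055 and Lmx1b by 2.09 ± 0.089. With probes above background on all 6 arrays 5 of these genes rose, and without NPC2 replicate A 1 fell. Of 16 tested neural crest genes, 9 rose and 3 fell, with a median of 0.63, and 1 had entered through NPC2 alone. Id3, an inhibitor of bHLH factors, rose by 4.19 ± 0.10 and Cdh6, a cadherin of the dorsal neural tube, by 2.50 ± 0.051, whereas Foxd3, a forkhead factor of both epiblast and neural crest, fell by 4.10 on the log2 scale (adjusted p = 0.000199). Sox5 and Sox8 of the crest list and Draxin, Olig3 and Wnt3a of the dorsal list were dim on all 6 arrays.

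Genes of the surface ectoderm and placodes went mostly the other way. Of 19 tested, 3 rose and 12 fell, with a median of -0.63, and 1 had entered through EpiSC alone. Ovol1, an epithelial zinc finger factor, was at least 6.34-fold lower in NPC2, Grhl2, a grainyhead factor of epithelia, fell by 2.49 on the log2 scale and Krt8, a keratin of simple epithelia, by 1.93. Dlx1, Dlx2, Dlx6 and Foxi2 of this list were dim on all 6 arrays. Of 23 tested genes of BMP signalling, 8 rose and 4 fell, with a median of 0.26, and 15 rose in the authors' value table. So 12 of the 23 passed, beside 64.4% of all tested genes, and the number of rises depended on the scaling. Of the 23, 2 had entered through NPC2 alone. Grem1, a secreted BMP antagonist, was among these 2 and so had to differ. It was at least 7.19-fold higher in NPC2 (adjusted p = 0.000532). Id1, a gene known to be induced by BMP, rose by 3.01 ± 0.078, and Smad7, an inhibitory SMAD, fell by 3.78 on the log2 scale. The ligands, named after their values were seen, went both ways: Bmp7 rose by 2.63 ± 0.065, Bmp4 rose by 1.47 ± 0.11 and Bmp2 fell by 1.86 on the log2 scale. The antagonists Nog (-0.24 ± 0.22, adjusted p = 0.397) and Chrd (0.02 ± 0.24, adjusted p = 0.951) did not pass.

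Ventral neural tube genes were counted for comparison, since the 10 genes are known from the dorsal side. Of 11 tested, 6 rose and 2 fell in NPC2 against EpiSC, with a median of 0.49, beside 26.3% higher and 38.2% lower of all tested genes. Dbx1 and Lmo3 were dim on all EpiSC and NPC1 arrays and entered through NPC2 alone. Dbx1, a homeobox factor of intermediate progenitors, was at least 29.1-fold higher in NPC2, Nkx6-1, a ventral progenitor factor, rose by 5.33 ± 0.11, and Lmo3 was at least 2.13-fold higher. Shh, Olig1 and Olig2 were dim on all 6 arrays. Of 15 neural plate genes 13 rose and 1 fell, with a median of 1.95 (1.56 once dim genes take their bound). Hes3 (at least 274-fold), Sox1 (5.72 ± 0.064) and Pou3f2 (at least 2.94-fold) were higher in NPC2. Of the 15, 3 had entered through NPC2 alone, Hes3 and Pou3f2 among them, and so had to differ.

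**Figure D4:**
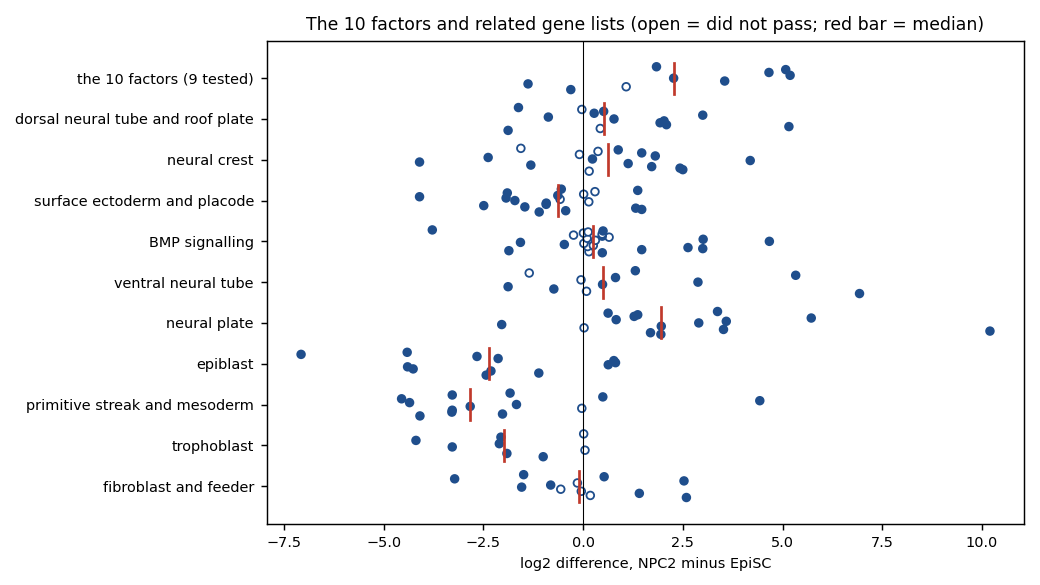
Log2 difference in NPC2 against EpiSC for each tested gene of the 10 factors and of 10 related lists, with open points for genes that did not pass and a red bar at each median; dim genes stand at their fitted value, not at a bound. The medians are 2.27 for the factors, 0.52 for dorsal neural tube, 0.63 for neural crest, -0.63 for surface ectoderm and 1.95 for neural plate genes.

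Markers of other cells that the cultures could hold were summed and counted as well. Summed over the genes of a list, with the array's 75th percentile as 1, the neural crest level was 12.1 to 12.6 in EpiSC, 9.21 to 9.8 in NPC1 and 44.8 to 47 in NPC2, with 15 or 16 of the 20 genes well above background per array. Id3 alone read 1.18 and 1.22 in EpiSC, 3.41 and 4.09 in NPC1 and 21.6 and 22.1 in NPC2 on this scale. Without Id3 the sum was 11 and 11.3 in EpiSC, 5.79 and 5.71 in NPC1 and 23.2 and 24.9 in NPC2. The surface ectoderm level was 203 to 212 in EpiSC, 164 to 171 in NPC1 and 85.7 to 88.3 in NPC2, with 17 to 20 of 25 genes above background. Krt18 alone read 123 and 132 in EpiSC, 105 and 95.9 in NPC1 and 40.8 and 37.2 in NPC2. Without Krt18 the sum was 80 and 80.6 in EpiSC, 66 and 67.6 in NPC1 and 47.6 and 48.4 in NPC2. The trophoblast level was 29.6 to 30.1 in EpiSC, 28.2 to 32.3 in NPC1 and 25.7 to 29.4 in NPC2, with 6 to 9 of 12 genes above background, and Cdx2, Esx1 and Tpbpa were dim on every array. Of 8 tested trophoblast genes 0 rose by the limma test (also 0 at an unadjusted p under 0.05) and 6 fell in NPC2 against EpiSC. Of all tested genes 26.3% were higher and 38.2% lower in that comparison. Among the falls were Plac1 (at least 4.96-fold lower), Hand1 (at least 2.15-fold lower) and Krt7 (-2.10 ± 0.097). Plac1 and Hand1 entered the test through the EpiSC arrays alone and so had to differ.

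Primitive streak and mesoderm genes summed to 28.9 to 29.5 in EpiSC, 12.6 to 13.2 in NPC1 and 12.3 to 13.4 in NPC2, with 9 to 12 of 14 above background and Meox1 dim on every array. Of 13 tested, 2 rose and 10 fell in NPC2 against EpiSC, beside 26.3% higher and 38.2% lower of all tested genes. Mixl1 and Hand1 entered the test through the EpiSC arrays alone and Pdgfra through the NPC2 arrays alone, so these had to differ. T, the streak factor brachyury, fell by 4.55 on the log2 scale, Mixl1 was at least 4.58-fold lower, and Pdgfra, a receptor of mesenchyme and neural crest, was at least 11.5-fold higher. Fibroblast and feeder genes summed to 46.2 to 48.1 in EpiSC, 33.5 to 34.9 in NPC1 and 38.4 to 39.2 in NPC2, with 11 or 12 of 13 above background and Lum dim on every array. Fn1 alone read 37.4 and 38.6 in EpiSC, 21.6 and 20.8 in NPC1 and 21.5 and 21.8 in NPC2. Without Fn1 the sum went the other way, at 8.85 and 9.48 in EpiSC, 13.3 and 12.7 in NPC1 and 17.7 and 16.6 in NPC2. Of 12 tested, 4 rose and 4 fell in NPC2 against EpiSC, where 64.4% of all tested genes passed, 26.3% higher and 38.2% lower. Acta2 rose by 2.59 ± 0.11, Postn was at least 1.88-fold higher and S100a4 fell by 3.22 on the log2 scale. Postn had entered the test through the NPC2 arrays alone and so had to differ. The falls among the 12 epiblast genes were led by Tdgf1 (-7.07 ± 0.11), Utf1 (-4.41 ± 0.060) and L1td1 (-4.40 ± 0.063). The part of any of these cell types in the values of the 10 factors was not tested.

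Genes with the most similar course over the 6 arrays were listed for each factor that passed a test, by the Euclidean distance between log2 values centred on their means, where 0 is an identical course. For Sox9 they were Jam2 (distance 0.298), Ccdc177 (0.499) and Ppp1r16b (0.531). For Pax3 they were Pantr1 (0.464), Elmod1 (0.582) and Efnb1 (0.599), and Pantr1 (0.658) and Efnb1 (0.934) came first for Pax7 too, followed by B3gat1 (0.944). Pantr1, Elmod1 and B3gat1 were themselves dim on 4 of the 6 arrays, and Jam2 on 2. Msx1 was closest to Apcdd1 (0.188), Klhl14 (0.417) and Slc32a1 (0.433), and Msx2 to Plxna2 (0.191), Cited2 (0.318) and Aard (0.33). Tfap2a was closest to Pik3ip1 (0.293), Atoh8 (0.348) and Slco3a1 (0.373). Atoh8 was dim on 4 arrays, and Klhl14 and Aard on 1. Gata3 was closest to 4933413J09Rik (0.143), Cd22 (0.146) and Pdlim7 (0.176), and Dlx3 to Ftl1 (0.0603), Samhd1 (0.0626) and Pdia6 (0.064). Genes that vary little, as Dlx3 does, lie close to many others on this measure, and all distances come from the same 6 arrays and carry no test.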

How the data were processed

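Total RNA of 6 cultures was labelled with Cy3 and hybridised to 1-colour Agilent arrays, per the labels' protocols. Per the file headers, Agilent Feature Extraction 10.10.1.1 gave each spot a background-subtracted processed intensity, a median intensity and a local background intensity, linear and not normalized between arrays, and flags of 0 or 1 that mark saturation, outliers and signal well above background. The submitters' processing notes name the same program. The authors' deposited value table holds that processed intensity times 1 constant per array, between 2.10 and 2.41, on a linear scale and not centred. The origin of the constant was not given in the sources used here. The medians of the table's columns were 52.5 and 51.3 (EpiSC), 61.8 and 59.6 (NPC1) and 65.3 and 64.3 (NPC2).

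Control and outlier-marked spots were left out, spots of a probe were averaged as log2 values, and log2 of the intensity minus the array's 75th percentile was tested two-sided with lmFit and eBayes of limma 3.58.1 under R 4.3.3 (3 group means, 3 residual and 1.7 prior degrees of freedom) with Benjamini-Hochberg adjustment. The computation was tested on simulated data. Of 28390 probes with a RefSeq accession, 26762 matched a symbol in the GRCm38.p6 table, used for names alone. The 2 arrays per group limit the precision, and the median SE was 0.0859. Duplicates correlated at r = 0.9963 to 0.9965 across probes, which are not independent replicates, and each culture was counted as its own sample.

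The 10 genes and all gene lists were chosen with earlier results of these data known. The value of 1 listed gene is not reported here. The genes named were the 10, the 3 genes of each list with the largest difference that passed in NPC2 against EpiSC, family members that passed, and the 3 genes of most similar course for each factor. The BMP ligands, Nog, Chrd, Krt18, Fn1, the epiblast genes that rose and the family members that did not pass were named after their values were seen. The promoters printed were also chosen then. Alternatives were other scalings, the authors' value table, normexp with an offset of 50 (on median intensities), filters on dim probes, 1 probe or the mean probe per gene, a replicate block, separate fits, and each array left out. Keeping outlier-marked spots was added after seeing the data.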

Additional observations from a re-analysis of the deposited data

Results flagged for a closer look

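A spot outside the values in use carried a signal where its neighbours had none. On the array of NPC1 B, 1 of the 10 spots of the Pax3 probe A_51_P315734 read 66.1 and was well above background, while the other 9 spots had a median of 2.12, ranged over 1.91 to 3.24 and were all dim. The scanner software marked that spot as an outlier, so it was left out. The spots in use on both NPC2 arrays read 60.6 to 78. On NPC1 A the 10 spots of the same probe read 1.87 to 2.61. The brighter Pax3 probe read 9.46 on NPC1 B and was dim there. With outlier-marked spots kept, the counts of factors that passed were the same in the 3 comparisons, and this Pax3 probe stood at 0.21 in NPC1 against EpiSC (limma adjusted p = 0.284). The source of the signal in that spot was not tested.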

How the results depend on the processing

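Under 17 alternatives no called value of the 10 factors changed direction. Of 30 probe differences, 25 kept their side of the threshold in every alternative run, and the other 5 are those of Dlx3, Dlx5, Tfap2a and Gata3 given in the report. The alternatives of a dim probe number fewer where a filter removed it. The count of factors that passed lay between 2 and 3 in NPC1 against EpiSC (2 in the report), 6 and 9 in NPC2 against EpiSC (8) and 6 and 8 in NPC2 against NPC1 (8). Factors lower in NPC1 against EpiSC were 2 with median scaling and with normexp (1 in the report). Those lower in NPC2 against EpiSC were 1 in the authors' value table (2), and those lower in NPC2 against NPC1 were 1 with quantile normalization, in the value table and in separate fits (2). With each array left out in turn, factors higher in NPC1 against EpiSC numbered 1 to 2, factors lower in NPC2 against EpiSC 1 to 2, and factors lower in NPC2 against NPC1 1 to 1.

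The deviations of same-lettered cultures correlated at 0.0318 (NPC1 and EpiSC), -0.00154 (NPC2 and EpiSC) and -0.0504 (NPC2 and NPC1). The arrays thus showed little shift shared by a letter. These values cannot tell whether same-lettered cultures were handled together. With the letter as a replicate block, 3 factors passed in NPC1 against EpiSC, 2 of them lower, 8 in NPC2 against EpiSC and 8 in NPC2 against NPC1. The block also gave 1 BMP gene lower and 0 trophoblast genes higher in NPC2 against NPC1, and 1 ventral gene higher in NPC1 against EpiSC.

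Scaling moved the median of all genes in NPC2 against EpiSC from -0.10 by 0.10 with quantile normalization and by 0.23 in the value table, and in NPC1 against EpiSC by -0.10 with median scaling. Relative to that median, Dlx3 in NPC2 against EpiSC lay between -0.23 and -0.20. The share of lower genes among those that passed was 56.7% in NPC1 against EpiSC (70.7% with median scaling, 37.3% in the value table), 59.3% in NPC2 against EpiSC (48.7% with quantile normalization, 38.6% in the value table, 48.8% with normexp) and 56.6% in NPC2 against NPC1 (41.1% in the value table). Of all tested probes 11168 passed in NPC1 against EpiSC, against 7424 with 1 probe per gene, 7357 with gene means, 7279 with the 26744 named probes and no filter, and 5464 to 8785 with an array left out. In NPC2 against EpiSC 18301 passed, against 10205, 10197 (1 probe or the mean per gene) and 14052 to 17981 (an array left out), and in NPC2 against NPC1 10722, against 7034, 6999 and 6302 to 8567. Each of those fits holds fewer probes or arrays than the 33532 probes and 6 arrays of the report.

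Counts of related genes changed by more than 1.5 times in the following cases, with the count of the same fit as the report in parentheses. BMP genes higher in NPC2 against EpiSC were 15 in the value table and 14 with normexp (8), and BMP genes lower in NPC2 against NPC1 were 1 with quantile normalization, 1 in the value table, 0 in separate fits and 0 to 1 with an array left out (2). Dorsal genes higher in NPC1 against EpiSC were 5 in the value table (3), and lower 2 with median scaling (1). Dorsal genes higher with probes above background on all arrays were 5 in NPC2 against EpiSC (8) and 4 in NPC2 against NPC1 (7), and the count in NPC2 against NPC1 was 4 to 7 with an array left out. Dorsal genes lower in NPC2 against NPC1 were 1 with quantile normalization, 1 in the value table, 4 with 1 probe per gene and 1 to 2 with an array left out (2), and those lower in NPC2 against EpiSC were 1 to 3 with an array left out (3). Surface ectoderm genes in NPC1 against EpiSC were 1 higher (2) and 7 lower (11) in separate fits, 6 lower in the value table, and 0 to 2 higher and 4 to 7 lower with an array left out. Surface ectoderm genes higher in NPC2 against EpiSC were 5 in the value table (3), and those lower in NPC2 against NPC1 were 5 to 8 with an array left out (8). Streak genes on probes above background on all arrays were 1 higher (2) and 6 lower (10) in NPC2 against EpiSC, 6 lower in NPC1 against EpiSC (10) and 3 higher in NPC2 against NPC1 (5), and 1 was higher in NPC2 against EpiSC with normexp. With an array left out, streak genes in NPC2 against NPC1 were 3 to 4 higher (5) and 2 to 4 lower (4). Trophoblast genes higher were 1 in NPC1 against EpiSC with quantile normalization and in the value table (0), 1 in NPC2 against EpiSC in the value table and with normexp (0), and in NPC2 against NPC1 0 in separate fits and 0 to 0 with an array left out (1), with 2 to 5 lower there (5). Ventral genes higher in NPC1 against EpiSC were 1 with median scaling, quantile normalization, normexp, no filter and separate fits, and 1 to 1 with an array left out (2). Epiblast genes higher were 1 to 2 with an array left out in NPC1 against EpiSC and in NPC2 against NPC1 (2). The cause of these changes was not tested.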

Other observations

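Genes that lie next to the 10 factors in the reference table of protein-coding genes, 2 on each side, were looked up after the values of the factors were seen. Of 40 such neighbours 25 were tested, and in NPC2 against EpiSC 8 were higher and 9 lower. Of all tested genes 64.4% passed there, 26.3% higher and 38.2% lower. Epha4, an ephrin receptor gene beside Pax3, was higher (log2 difference 2.1, limma adjusted p = 0.000118), as were Igsf21 near Pax7 (2.21) and Nsg1 near Msx1 (1.93). Around Dlx3 all 4 neighbours passed: Dlx4 (-1.10), Itga3 (-2.90) and Tac4 (-1.82) were lower and Pdk2 (1.42) was higher, beside -0.31 for Dlx3 itself. All 4 neighbours of Gata3 passed too: Celf2 (1.07) and Usp6nl (0.34) were higher, and Taf3 (-0.33) and Atp5c1 (-0.44) were lower. Dlx6, the neighbour of Dlx5, was not tested because it was dim.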
